A study of Mus musculus with 2 samples.

Results

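Within the leukocytes of day 4 mouse melanomas, a small population of macrophages carried Folr2, Cbr2 and Gas6 together, part of them with Lyve1, Cd5l or Ccl8. These cells were selected on their measured counts. A cell was a member when it had 1 or more UMI (unique molecular identifier, 1 counted RNA molecule) in at least 4 of 8 markers, namely Lyve1, Folr2, Cbr2, Cd5l, Gas6, Ednrb, Ccl8 and Cd163, and no UMI of Mmp13, Ace, Cdh1, Cd3e, Ncr1 or Cxcr2. Cells had to hold 500 to 15000 UMIs and 200 to 4000 genes, with at most 10% of UMIs from mitochondrial genes. By this rule 426 of 9798 cells were members, 207 of 5292 in the control library and 219 of 4506 in the NK cell-depleted library. These are called the control and the depleted library, and their members control and depleted members.

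Both libraries came from C57BL/6 hosts aged 8 weeks that carried, according to the series' design text, Ptgs-deficient melanomas. The Ptgs genes encode the cyclooxygenases needed to make prostaglandin E2. A label shared by both samples calls the tumor cells wildtype, and the libraries are named here as the titles and treatment give them. The control mice were untreated. The NK cell-depleted mice received 200 µg of anti-NK1.1 (clone PK136) and 30 µg of anti-asialo GM1 per mouse on day 0 and day 2, counted from tumor cell injection. CD45+ cells were sorted from pooled tumors, and 16000 cells were loaded per 10x Genomics channel. According to the study's methods, parental melanoma cells were added to each sample as a spike-in, so the cell totals can hold such cells. Each group is 1 library. There is therefore no replicate, no test was possible, and every interval below covers counting error only, not the difference between mice.

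Tissue macrophages with Lyve1 and Folr2 lie along vessels of many organs. They take up proteins, lipids and dying cells through scavenger and lectin receptors, they secrete growth factors and chemokines, and in tumors they are described apart from macrophages that recently arose from monocytes. Interferons, among them the interferon-gamma made by NK cells, act on macrophages through surface receptors and induce antiviral, antigen-processing and chemokine genes.

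The members were the deeper cells of each library. Their median depth was 6990 UMIs and 2508 genes in the control and 8394 UMIs and 2823 genes in the depleted library, against 4170 and 4893 UMIs over all cells. Their summed counts were 1494462 and 1830569 UMIs. Since deeper cells meet a rule of 4 detected markers more easily, the share of members was also taken with every cell thinned to 2000 UMIs. Scrublet, a doublet caller, marked none of the members, and 41 and 31 of all cells. Of the filtered cells, 5004 of 5292 in the control and 4506 of 4506 in the depleted library were not called NK cells. The libraries shared 5 cell barcodes, and 1 member barcode of either library was also present in the other.

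The 8 markers of the rule were not shared evenly by the members, which is a description, since they chose the cells. Folr2, a folate receptor, was detected in 97.1% of control and 95.9% of depleted members. Cbr2, a carbonyl reductase, was detected in 96.6% and 98.6%, and Gas6, a bridging ligand for receptors that clear dying cells, in 94.2% and 92.2%. These markers were close to complete in both libraries, and the remaining ones set members apart from each other. Ednrb, an endothelin receptor, was found in 71.5% and 80.8% of members, Cd5l, a secreted scavenger protein, in 27.1% and 47.9%, and Cd163, a hemoglobin scavenger receptor, in 15.5% and 20.5%. Lyve1, a hyaluronan receptor, was present in 45 of 207 control members and 84 of 219 depleted members, 21.7% (95% Clopper-Pearson interval 16.3 to 27.99) and 38.4% (31.9 to 45.1).

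Ccl8, a CC chemokine, ran the other way. It was detected in 138 of 207 control members and 95 of 219 depleted members, at 2040 and 529 CPM (UMIs of the gene per 1000000 UMIs of the cells summed), from 3048 and 968 UMIs. Lyve1 stood at 143 and 258 CPM and Cd5l at 140 and 340 CPM. Folr2 (711 and 697 CPM) and Gas6 (731 and 794 CPM) had almost the same level in the 2 libraries. The 205 and 209 members deep enough were also thinned to 2000 UMIs each. Lyve1 was then seen in 14.1% and 23.4% of them and Ccl8 in 49.3% and 25.4%. Both genes had helped to choose these members at full depth, so the shares are a description. In T-called cells, which should lack these genes, the 8 markers were found in at most 3.78% of cells in either library, at median depths of 2340 and 2653 UMIs. Neither Ccl8 nor Cd163 had a UMI in the 185 and 129 T-called cells, which allows shares of up to 1.62% and 2.33%.

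**Figure D1:**
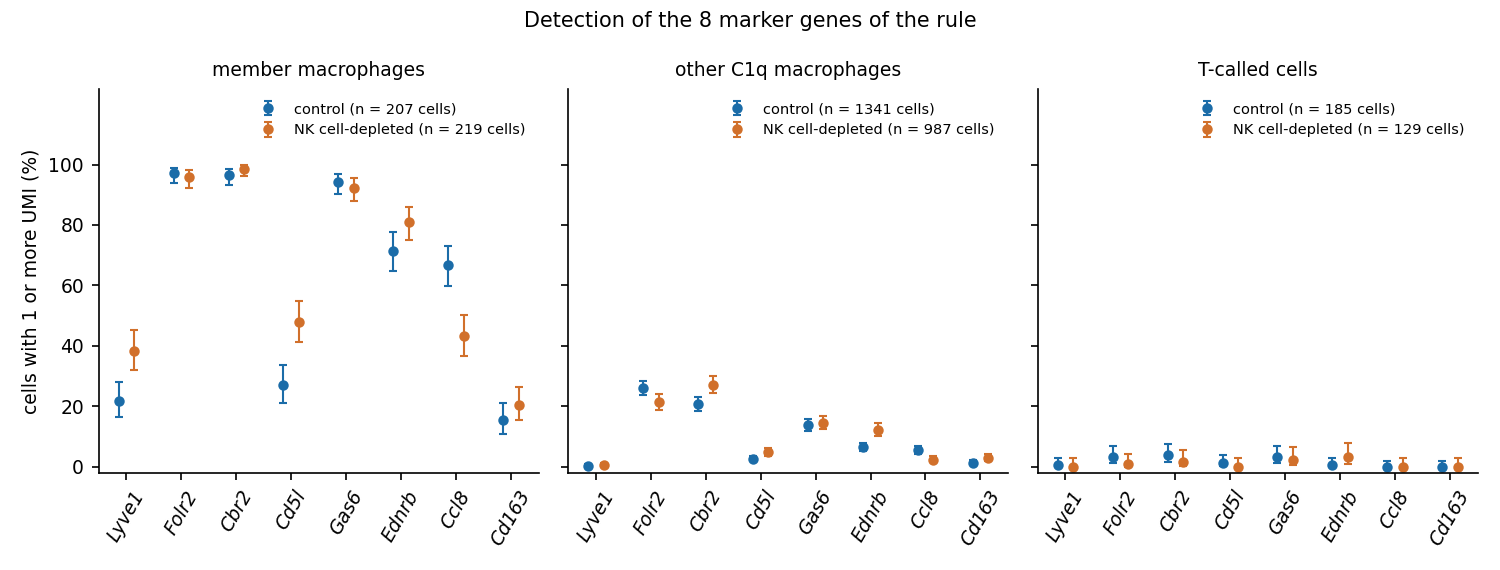
Share of cells with 1 or more UMI (y axis, percent) of each of the 8 markers in members, in the other C1q macrophages and in T-called cells, for the control and NK cell-depleted library; bars are exact 95% binomial intervals. Folr2, Cbr2 and Gas6 were above 90% in members of both libraries, Lyve1 and Cd5l were lower and Ccl8 higher in control members, and T-called cells were near 0.

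The data go only partly with a name that leads with Lyve1 and residence, so the members are called Folr2 Cbr2 Gas6 macrophages here. Pan-macrophage genes were present in most members. The receptor genes Csf1r and Adgre1, which encode the CSF1 receptor and F4/80, were detected in 95.7% and 96.1% of control members and in 94.5% and 91.3% of depleted members, and 2 or more C1q genes in 97.6% and 92.7%. Timd4, a phosphatidylserine receptor of long-lived resident macrophages, was found in 0 of 207 control members, which allows a share of up to 1.45%, and in 12 of 219 depleted members. Ccr2, the chemokine receptor of monocytes, was detected in 190 of 207 and 197 of 219 members, at 1387 and 1507 CPM, against 1422 and 1896 CPM in the other C1q macrophages. Whether these cells were resident or had come from monocytes was not tested.

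Among cells without the exclusion genes, 139 control and 110 depleted cells had 3 markers and lay just outside, and 89 and 84 cells had 4 and lay just inside. Gas6, whose step the rule itself sets, stood at 214 and 199 CPM in the cells with 3 markers and at 453 and 444 CPM in those with 4. Mrc1, the mannose receptor, was no part of the rule and stood at 1524 and 1705 CPM outside and at 2087 and 2086 CPM inside. The exclusion genes removed 16 of 223 cells in the control and 10 of 229 in the depleted library, most of them through Mmp13, which was present in 10 and 6 of the removed cells.

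Levels of genes that played no part in the rule differed with the number of markers. Among macrophages with 2 or more C1q genes, Igf1, insulin-like growth factor 1, stood at 13 CPM in control cells with no marker and at 291 CPM in those with 6 to 8 markers, and at 17 and 348 CPM in the depleted library. Selenop, the selenium carrier selenoprotein P, went from 370 to 3999 CPM in the control and from 372 to 4178 CPM in the depleted library. Arg1, the arginine-consuming enzyme arginase 1, was lower with 6 to 8 markers than with none. The levels were 282 against 1024 CPM in the control and 18.7 against 554 CPM in the depleted library. Arg1 was highest with 1 marker, at 1499 CPM in the control and 633 CPM in the depleted library. Median depth was also greater with more markers, 5090 against 7848 UMIs in the control and 5730 against 8788 UMIs in the depleted library, and its part in the gradient was not tested.

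**Figure D2:**
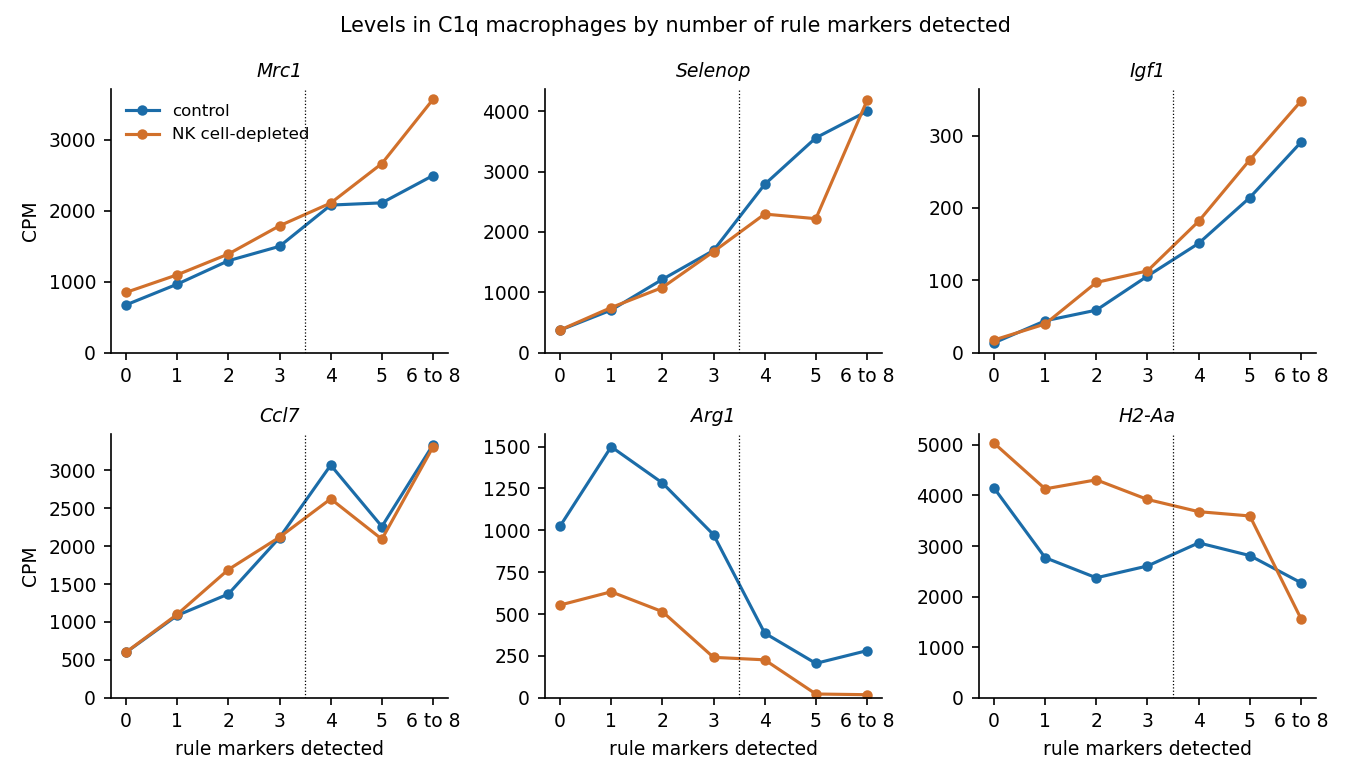
CPM (y axis) of 6 genes outside the rule in macrophages with 2 or more C1q genes, by the number of rule markers detected (x axis), in the control and NK cell-depleted library; the dotted line marks the threshold between 3 and 4 markers. Mrc1, Selenop, Igf1 and Ccl7 were higher with 6 to 8 markers than with none in both libraries, and Arg1 and H2-Aa were lower.

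The members also lay near each other when the 14 rule genes were left out. Among the 20 nearest neighbours of a member, in 15 principal components computed without those genes, on average 48.5% in the control and 55.7% in the depleted library were members. Members made up 4.35% of all cells. The neighbours of the other C1q macrophages were members in 5.09% and 8.28% of cases, and those of cells with 3 markers in 21.6% and 29.4%.

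Set beside the other C1q macrophages, which have 2 or more C1q genes, none of the exclusion genes and fewer than 4 markers, the members carried resident-type genes outside the rule at higher and hypoxia and glycolysis genes at lower levels. This is a description of cells chosen by their own counts, given for each library. Of 7051 genes with 100 or more UMIs in each library, 123 (1.74%) were 2-fold or more higher in members in both libraries and 193 (2.74%) were 2-fold or more lower. Of 24 measured macrophage genes of resident type outside the rule, 16 were 2-fold or more higher in both and none was that much lower, with a median log2 difference of 1.35 in the control and 1.70 in the depleted library. The median over all 7051 genes was 0.06 in the control and 0.01 in the depleted library. Of 13 measured scavenger and lectin receptors 3 were 2-fold or more higher in both libraries and none that much lower, with medians of −0.01 and 0.04, and of 12 measured genes for bridging and uptake of dying cells 1 was higher and 1 lower, with medians of 0.68 and 0.67.

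Single genes that were higher in members had varied roles. Selenop stood at 3366 CPM in control members and 700 CPM in the other C1q macrophages, and at 3065 and 735 CPM in the depleted library, a log2 difference of 2.27 and 2.06. Fcgrt, the neonatal Fc receptor that recycles IgG, stood at 567 against 96.1 CPM and at 613 against 80.9 CPM. Cd38, an NAD-consuming surface enzyme, stood at 124 against 7.96 CPM and at 158 against 6.92 CPM. Npl, a sialic acid lyase, stood at 79.0 against 4.49 CPM and at 97.2 against 5.85 CPM, and was the first of these genes by the smaller of its log2 differences, 4.12 and 4.04. C4b, a complement component, was higher by 2.50 and 2.54 and Ltc4s, leukotriene C4 synthase, by 2.04 and 3.27.

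Growth factors were split. Igf1 was higher in members by 2.52 in the control and 2.47 in the depleted library, and Pdgfc, a platelet-derived growth factor, by 2.66 and 2.99. Vegfa, the angiogenic factor, had −2.54 and −1.85. Of 15 measured growth and repair factors, 3 were 2-fold or more higher in members in both libraries and 4 were that much lower. Among CC chemokines outside the rule, 4 of 11 measured genes were 2-fold or more higher in members in both libraries, and 3 were that much lower. Ccl7, a monocyte attractant, stood at 2913 against 977 CPM in the control and 2716 against 1086 CPM in the depleted library, whereas Ccl22, a ligand of Ccr4, had no UMI in the members of either library. The other C1q macrophages held 26.2 and 15.4 CPM of Ccl22, so it was at least 13.04-fold and 9.39-fold lower in members, taking 3 UMIs per library as the limit for a count of 0.

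Hypoxia and glycolysis genes were lower in the members. Of 26 measured genes of hypoxia and glycolysis, 18 were 2-fold or more lower in both libraries and none was that much higher, with medians of −1.46 and −1.07. Bnip3, a mitophagy receptor induced by low oxygen, stood at 101.0 against 326 CPM in the control and at 73.2 against 226 CPM in the depleted library. Mmp12, macrophage elastase, stood at 6.02 against 528 CPM and at 41.5 against 404 CPM. Itgax, which encodes CD11c, had 2 and 1 UMIs in members, against 100.6 and 58.9 CPM in the other C1q macrophages. Of the 4 measured dendritic cell genes 2 were 2-fold or more lower in both libraries, whereas cells with 2 or more genes of that list were 8.70% of members and 5.67% of other C1q macrophages in the control, and 7.31% and 5.37% in the depleted library. The 8 measured MHC class II genes had medians of −0.78 and −0.99, led in level by Cd74, the invariant chain, at 4546 against 5652 CPM in the control and 3027 against 4883 CPM in the depleted library.

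**Figure D3:**
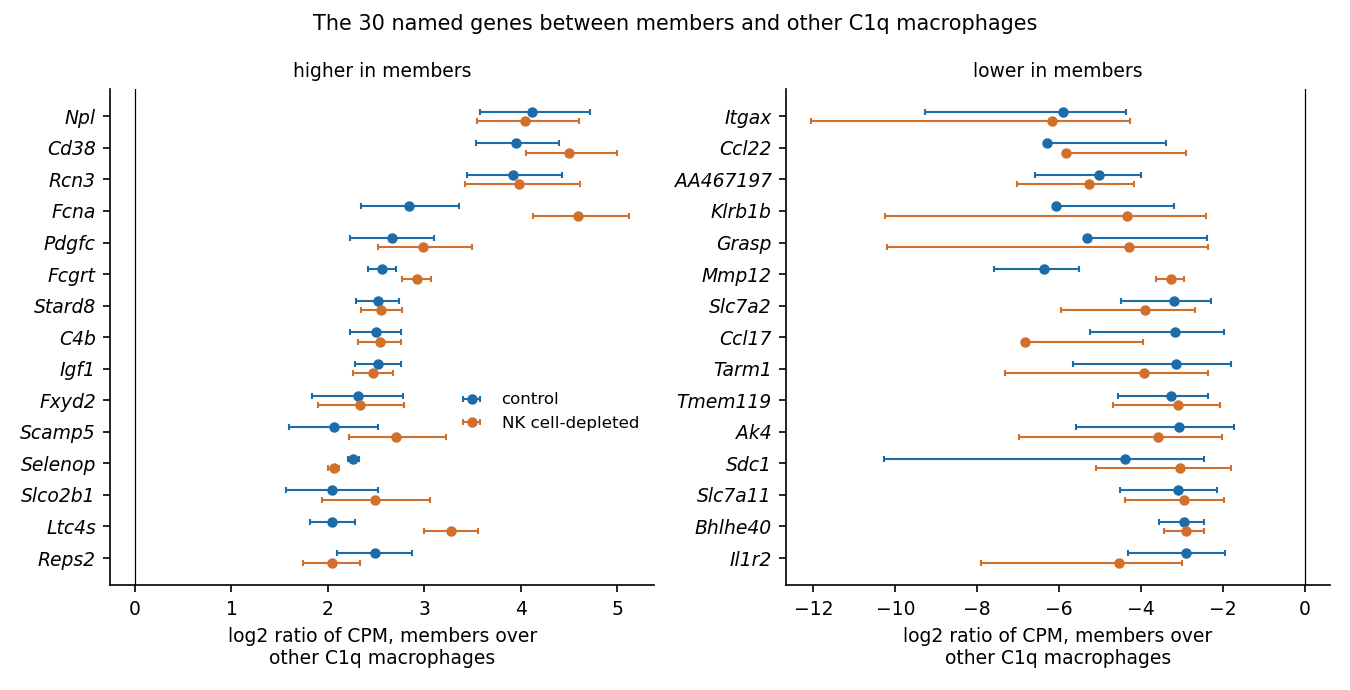
Log2 ratio of CPM (x axis), members over other C1q macrophages, for the 15 genes highest and the 15 lowest in members, by the library with the smaller difference; points are the control and NK cell-depleted library and bars are 95% counting intervals. The 2 libraries lie on the same side of 0 for every gene shown, which the choice of genes fixes, and points without a left bar had no UMI in the members.

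The members took a smaller share of the control than of the depleted library. They made up 3.91% (3.41 to 4.47) of control and 4.86% (4.25 to 5.53) of depleted cells, a ratio of 0.805 (0.662 to 0.978). Of the macrophages with 2 or more C1q genes they were 10.4% (202 of 1949) and 14.2% (203 of 1429), a ratio of 0.730 (0.597 to 0.891). With NK-called cells left out of the total the ratio was 0.851 (0.700 to 1.03), and with every cell thinned to 2000 UMIs it was 0.873 (0.659 to 1.16), from 104 members in each library. These latter intervals hold 1, so the smaller share in the control was not detectable without the NK cells or at equal depth.

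The number of markers per member was also compared. Members with 6 to 8 markers were 55 of 207 in the control and 88 of 219 in the depleted library, 26.6% and 40.2%. Depth moved with this, since depleted members had more UMIs per cell. Thinned to 2000 UMIs each, 13 of 205 control members had 6 to 8 markers, 6.34% (3.42 to 10.6), and 22 of 209 depleted members did, 10.5% (6.72 to 15.5). These intervals overlap, so the larger number of markers in depleted members was not detectable at equal depth. Without Ccl8 in the rule, 161 of the control members (77.8%) and 201 of the depleted members (91.8%) still met 4 of the 7 other markers, so 46 control and 18 depleted cells were members only through Ccl8. Lyve1 and Ccl8 were found together in 31 and 49 cells.

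Over all 6644 genes with 50 or more UMIs in the members of both libraries together, 378 (5.69%) were 1.5-fold or more higher in control members and 388 (5.84%) were 1.5-fold or more lower. In the other C1q macrophages these were 497 (5.23%) and 369 (3.88%) of 9508 genes. The median log2 ratio over all genes in members was −0.03. Gene lists are read below against these shares.

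Type I interferon-induced genes were higher in control members as a group. Of 39 measured genes of the list, 37 lay above 0, 18 were 1.5-fold or more higher and none was 1.5-fold or more lower, with a median log2 ratio of 0.48. The median of the genes' lower counting bounds was 0.19 and that of their upper bounds 0.87, the counting range used for every list here. Isg15, an antiviral ubiquitin-like protein, had 394 UMIs in 103 of 207 control members and 182 UMIs in 83 of 219 depleted members, 264 and 99.4 CPM, a log2 ratio of 1.40 (1.15 to 1.67). Ifit1, Ifit2 and Ifit3, which bind foreign RNA, stood at 97.7, 105 and 65.6 CPM in the control and at 44.2, 45.9 and 26.8 CPM in the depleted library. Bst2, which tethers budding viruses, stood at 772 and 461 CPM, Irf7, a transcription factor of the interferon response, at 282 and 165 CPM, and Oas3, a sensor of double-stranded RNA, at 137 and 72.7 CPM.

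For several of these genes the level differed more than the number of cells with a UMI. Irf7 was detected in 130 of 207 and 130 of 219 members and Bst2 in 192 of 207 and 198 of 219. Rsad2, the antiviral enzyme viperin, was detected in 98 and 92 members at 298 and 173 CPM. With cells above the upper depth limits added, Ifit1 stood at a log2 ratio of 0.18 instead of 1.14 and Rsad2 at 0.03 instead of 0.78, and the list median was 0.35. With 3 or more markers in place of 4, Irf7, Bst2 and Rsad2 were under 1.5-fold, at log2 ratios of 0.54, 0.56 and 0.54.

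The core letters of the interferon-stimulated response element, a DNA motif bound by interferon-activated factors, were present upstream of part of this list. In the RefSeq promoter table (GRCm38.p6), 28 of the 39 measured genes were matched, and 12 of them (42.9%) had the letters GAAANNGAAA, or TTTCNNTTTC on the other strand, in the 250 bases before the start. Of all 27025 genes listed there, 936 (3.46%) had them, and over the 5315 matched genes measured in members 3.84%. The letters were not particular to this list, since 10 of 26 matched genes (38.5%) of the interferon-gamma response list had them. Another motif searched, GAS (TTCNNNGAA), was found in 4 of 28 matched type I genes (14.3%) and 8 of 26 interferon-gamma genes (30.8%). Over the genes measured in members it was found in 6.79%. The 150 bases before the start are shown for 4 of the 12 type I genes with the letters, chosen for the values above. Irf7 and Ifit2, also named above, had no match to GAAANNGAAA or TTTCNNTTTC in the 250 bases. The sequences read 5′ to 3′ along the gene's strand, with letters matching GAAANNGAAA or TTTCNNTTTC in capitals. They lie at chr4:156200819-156200968 (Isg15, minus strand), chr5:120777660-120777809 (Oas3, minus strand), chr8:71537473-71537622 (Bst2, minus strand) and chr19:34640739-34640888 (Ifit1, plus strand).
Isg15: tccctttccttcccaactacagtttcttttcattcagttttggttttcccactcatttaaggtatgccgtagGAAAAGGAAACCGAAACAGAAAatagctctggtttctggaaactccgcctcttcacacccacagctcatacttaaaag
Oas3: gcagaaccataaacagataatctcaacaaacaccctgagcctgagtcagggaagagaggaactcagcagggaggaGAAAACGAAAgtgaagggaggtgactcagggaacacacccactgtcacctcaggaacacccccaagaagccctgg
Bst2: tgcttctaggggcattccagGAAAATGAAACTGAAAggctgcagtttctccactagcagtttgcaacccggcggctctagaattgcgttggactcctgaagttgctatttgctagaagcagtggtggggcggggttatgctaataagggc
Ifit1: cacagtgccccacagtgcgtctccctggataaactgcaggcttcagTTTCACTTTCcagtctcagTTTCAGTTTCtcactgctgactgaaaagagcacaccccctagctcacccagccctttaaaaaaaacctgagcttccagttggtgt
Isg15 has 3 overlapping matches and Bst2 has 2, Ifit1 has 2 apart from each other, and Oas3 has 1. Of the 7 rule markers in the table, none had GAAANNGAAA or TTTCNNTTTC in the 250 bases. Of the 9 matched genes among the 12 lowest in control members none did, and of the 9 matched among the 12 highest 2 did, Cxcl10 and Isg15. Beside a share of 3.84% over measured genes, sets of 7 or 9 genes are too small to show a lack, so no contrast is read. A match describes letters and not bound protein.

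In the other C1q macrophages the type I interferon list had a median log2 ratio of −0.19 (−0.34 to −0.04), with 1 of 42 measured genes 1.5-fold or more higher and 1 lower. Within the control library the list was higher in members than in the other C1q macrophages by a median of 0.74, and within the depleted library by 0.00. Isg15 stood at 183 and 145 CPM and Irf7 at 154 and 200 CPM in the other C1q macrophages. Ly6c2, a gene of monocytes, was found in 23.6% of the other C1q macrophages in the control and 44.0% in the depleted library, against 35.3% and 31.1% of members. Split by Ly6c2, a division chosen after seeing the data, the list median of the other C1q macrophages was 0.09 in cells with it and 0.05 in cells without it, both above the pooled value, with counting ranges that held 0 (−0.11 to 0.32 and −0.20 to 0.32). In members it was 0.53 (0.14 to 1.10) with Ly6c2 and 0.30 (−0.05 to 0.78) without, and the latter range also held 0. A positive median was not particular to the members. In monocytes, taken as cells with Ly6c2 and with Ccr2 or Plac8 but with no C1q gene and no exclusion gene, it was 0.32 (0.09 to 0.50), with 8 of 41 measured genes 1.5-fold or more higher and none lower. In macrophages with Mmp13 and 2 or more C1q genes it was 0.37 (−0.08 to 0.77), with 8 of 37 higher and none lower. The difference between members and other macrophages was not tested, since each group is 1 library.

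**Figure D4:**
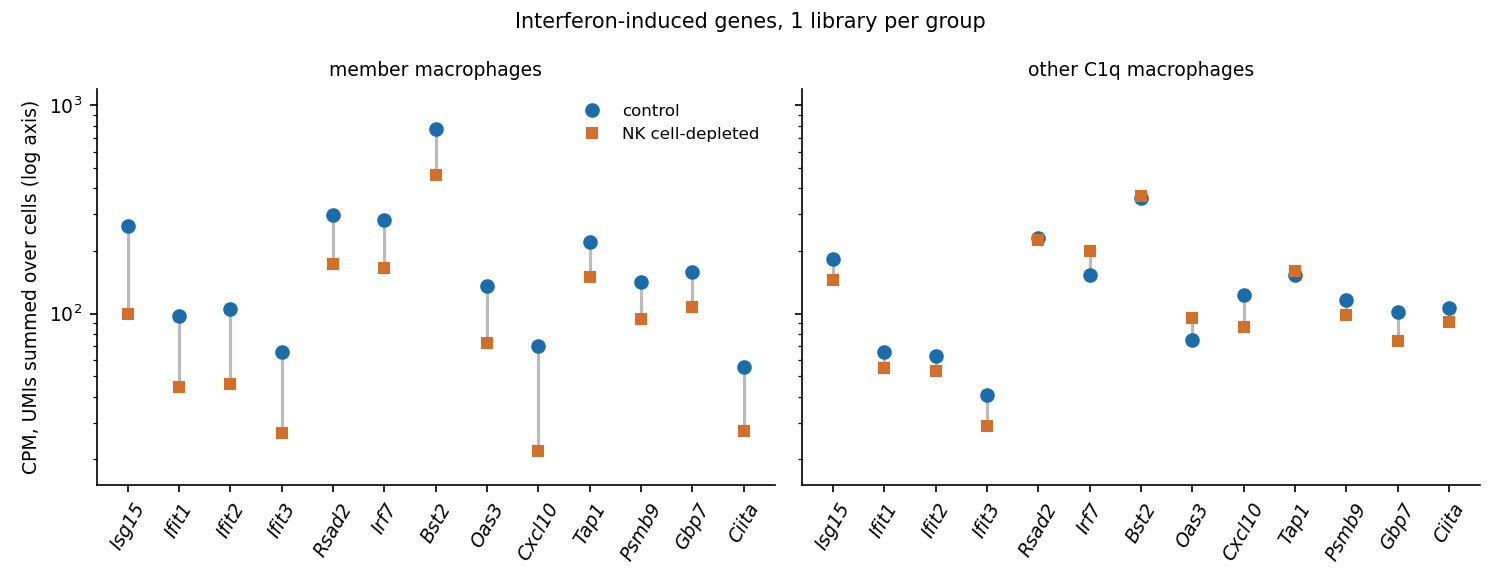
CPM (log axis) of 13 interferon-induced genes in members and in other C1q macrophages, in the control (circles) and NK cell-depleted (squares) library. Control members were above depleted members for each of the 13 genes, which were picked as examples, so this does not give the share of list genes. In members 37 of 39 type I and 27 of 34 interferon-gamma genes lay above 0. Among the other C1q macrophages Irf7 and Oas3 lay higher in the depleted library, at log2 ratios of −0.38 and −0.34. There 13 of 42 type I genes lay above 0 and 29 below, and 24 of 41 interferon-gamma genes above and 17 below.

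Genes of the interferon-gamma response were also higher in control members, with more variation among them. Of 34 measured genes 27 lay above 0, 9 were 1.5-fold or more higher and 1 was 1.5-fold or more lower, with a median of 0.42 (0.07 to 0.75). Members were also split by marker number, Lyve1, Ccl8 and Ly6c2, and the median was above 0 in each subset. Its counting range left out 0 only in members with Ly6c2, at 0.50 (0.07 to 0.92). It was 0.20 (−0.26 to 0.71) with 6 to 8 markers and 0.22 (−0.27 to 0.70) without Ly6c2. In the other C1q macrophages the median was 0.08 and 8 of 41 genes were 1.5-fold or more higher. A positive median was again not particular to the members. In the Ly6c2 monocytes it was 0.35 (0.14 to 0.66), with 12 of 39 genes 1.5-fold or more higher and none lower. In the Mmp13 macrophages it was 0.33 (−0.09 to 0.78), with 9 of 31 higher and 2 lower. Cxcl10, a chemokine that draws T cells and NK cells, had 105 UMIs in 25 control members and 40 UMIs in 9 depleted members, 70.3 and 21.9 CPM. Of the 40 UMIs 19 lay in 1 cell, and its log2 ratio of 1.67 ranged from 1.34 to 3.60 over the alternatives and was 0.21 (−0.86 to 1.19) in members with Lyve1. It was more abundant in the other C1q macrophages, at 123 and 85.8 CPM. Gbp7, a guanylate-binding protein, stood at 159 and 107 CPM in members, and Tap1, a peptide transporter, at 220 and 151 CPM. Icam1, an adhesion molecule, was the gene of the list that was lower, at 84.3 and 131 CPM.

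Antigen presentation genes were split. The 15 MHC class I genes had a median of 0.34, with 2 genes 1.5-fold or more higher and a counting range that held 0. H2-K1 and B2m, the class I chain and its partner, had log2 ratios of −0.14 and −0.27. The 7 measured class II genes had a median of 0.10. Among them Ciita, the class II transactivator, stood at 55.5 and 27.3 CPM and Cd74 at 4546 and 3027 CPM, both 1.5-fold or more higher in control members, and H2-Aa and H2-Eb1 at log2 ratios of −0.04 and −0.04.

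Among secreted factors, the chemokines split by gene. Pf4, platelet factor 4, stood at 3231 and 1391 CPM in members, a log2 ratio of 1.22, and at 2205 and 757 CPM in the other C1q macrophages, 1.54. Ccl12 stood at 369 and 178 CPM. Ccl2, the main ligand of Ccr2, stood lower in control members, at 1854 and 2948 CPM, and Cxcl1, a chemokine for neutrophils, at 45.5 and 140 CPM. Of 8 measured CC chemokine genes outside the rule, 1 was 1.5-fold or more higher and 2 were lower, and the median of −0.31 was near the −0.40 of the other C1q macrophages.

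The log2 ratio of Ccl8 was 1.95 (1.84 to 2.05). This gene helped to choose the cells, so the value is a description. In the other C1q macrophages Ccl8 had 461 UMIs in the control and 75 in the depleted library, a log2 ratio of 2.35. Within members that had Ccl8 it stood at 2964 and 1252 CPM, 1.24 on the log2 scale. With 4 of the 7 other markers required, the type I interferon median was 0.56.

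Arginase and repair factors also differed. Arg1 stood at 300 and 87.4 CPM in members, from 448 UMIs in 41 cells and 160 UMIs in 21 cells, a log2 ratio of 1.78. The ratio was 3.30 with 5 or more markers required and 2.64 without the 5 cells that held most of its UMIs, and in members with Ly6c2 it was −1.89 (−3.77 to −0.54), from 5 and 20 UMIs. Arg1 was also higher in the control in the other C1q macrophages, at 1169 and 531 CPM, a log2 ratio of 1.14. In the Ly6c2 monocytes the ratio was 0.53, and in the Mmp13 macrophages the levels were near even, at 2151 and 2150 CPM. Il10, an anti-inflammatory cytokine, stood at 89.7 and 212 CPM in members and was found in 38 and 66 of them. It was also lower in the control among other C1q macrophages. There it stood at 10.1 and 28.9 CPM with no marker and at 49.2 and 74.0 CPM with 1 to 3 markers. Of 13 measured growth and repair factors 5 were 1.5-fold or more lower in control members and none was higher, with a median of −0.32. This median was 0.08 with 3 or more markers required, where Spp1, osteopontin, stood at 0.08 instead of −1.14.

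Several lectin genes known from resident macrophages were lower in control members. Of 27 measured genes outside the rule 7 were 1.5-fold or more lower and none was higher. The list median was −0.18 beside the −0.03 of all genes, with a counting range that held 0 (−0.31 to 0.02). Cd209f, a C-type lectin close to DC-SIGN, had 79 UMIs in 17 of 207 control members and 312 UMIs in 29 of 219 depleted members, 52.9 and 170 CPM. Fcna, ficolin A of the lectin complement pathway, had 80 UMIs in 42 members and 275 UMIs in 79 members, 53.5 and 150 CPM. Cd209g and Cd209d, of the same family, were found in 10 and 4 control members and in 29 and 16 depleted members. Cd209d was not particular to members, at 14.1 and 39.9 CPM in them and 24.3 and 24.2 CPM in the Ly6c2 monocytes. Pmp22, a membrane protein first known from myelin, stood at 79.0 and 239 CPM. It was not particular to members either, at 77.0 and 249 CPM in the Mmp13 macrophages. The Cd209 genes resemble each other in sequence, so their counts are uncertain where reads match more than 1 of them.

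These differences varied with the makeup of the members. In members without Ccl8, Cd209f had a log2 ratio of 0.03 and Fcna of −0.35, and in members with Ccl8 they had −2.69 and −2.29. Within members that had Lyve1 the ratios were −1.72 for Cd209f and −1.38 for Fcna, and within those with 6 to 8 markers −1.35 and −1.38. Cd5l had −1.28 over all members and −2.46 in those with Lyve1. Mrc1, which nearly every member carried, stood at 2220 and 2839 CPM, a log2 ratio of −0.35.

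The type I interferon median was above 0 in each of these subsets. It was 0.40 in members with 4 or 5 markers and 0.64 in those with 6 to 8, 0.49 in members with Lyve1 and 0.41 without, and 0.64 with Ccl8 and 0.36 without. Its counting range held 0 in members with Lyve1 (−0.07 to 1.02) and in those without Ccl8 (−0.11 to 0.74). Among C1q macrophages with no marker it was −0.30 and with 1 to 3 markers −0.17. Within the control library, members with Ccl8 exceeded members without it by a median of 0.24 on this list, and within the depleted library the difference was −0.11, both with a counting range that held 0.

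These inflammatory and metabolic lists lay on the same side of 0 in members and in the other C1q macrophages. The 25 NF-kB response genes had a median of −0.34, against −0.36, and 6 of them were 1.5-fold or more lower in control members, among them Nfkbia, the inhibitor of NF-kB, at 519 and 840 CPM. The 22 immediate early and heat shock genes had −0.22, against −0.29. The 54 nuclear genes of the respiratory chain had 0.36, against 0.21, with 11 of them 1.5-fold or more higher and none lower. The 24 hypoxia and glycolysis genes had 0.26, against 0.50, with a counting range in members that held 0 (−0.03 to 0.57). In the Mmp13 macrophages the median of the hypoxia and glycolysis list was −0.25 (−0.41 to 0.01).

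**Figure D5:**
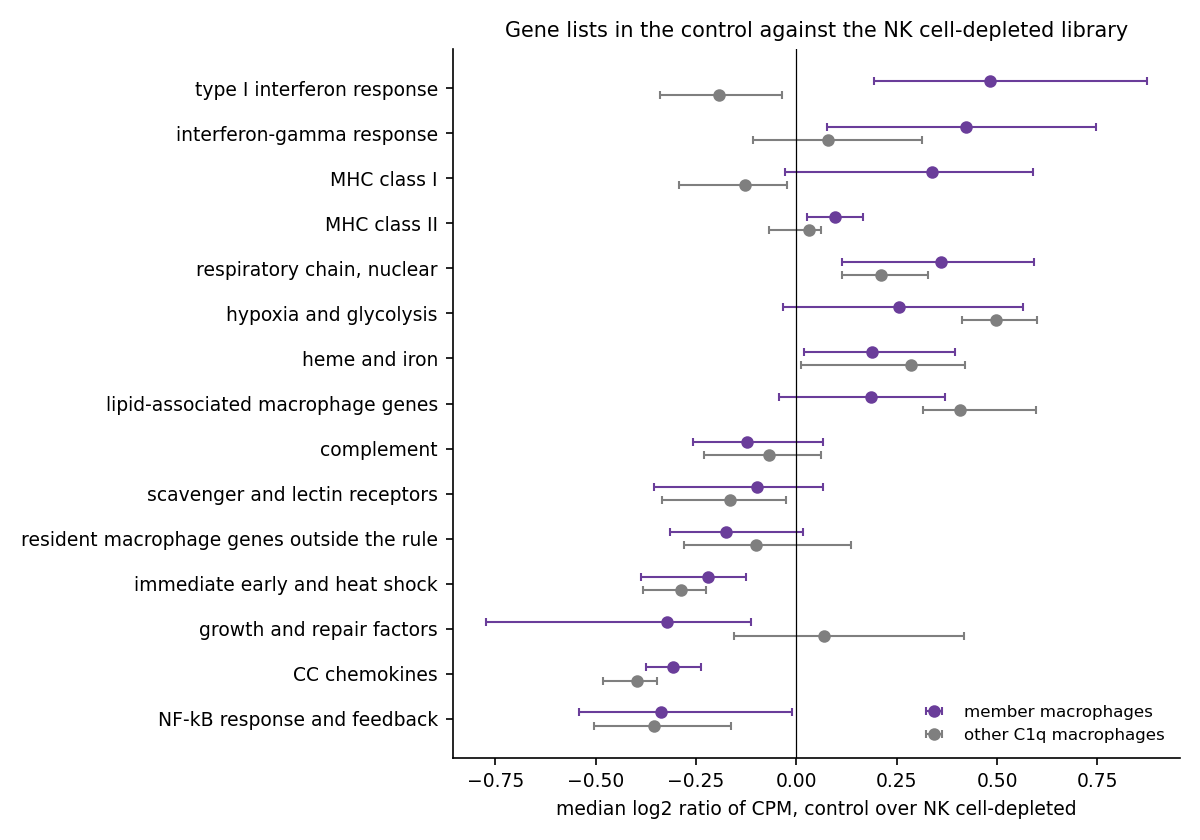
Median log2 ratio of CPM, control over NK cell-depleted (x axis), for 15 gene lists in members and in other C1q macrophages; bars run from the median of the genes' lower to the median of their upper 95% counting bounds. The type I interferon list lies at 0.48 in members and −0.19 in other C1q macrophages, and the NF-kB list at −0.34 and −0.36.

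The remaining genes with large ratios were mostly low counts. Among the 12 highest in control members were Slc40a1, the iron exporter ferroportin (48 and 9 UMIs), AU020206 (44 and 14), Gadd45g (51 and 19), 2310033P09Rik (49 and 20), Mlkl, the effector of necroptosis (48 and 20), Gpnmb (46 and 21) and Abcc3 (41 and 19). S100a9, a neutrophil protein, led with 82 and 4 UMIs, but 81 of the 82 lay in 1 cell. Among the 12 lowest were Gfra2 (13 and 72 UMIs), Gdf3 (16 and 79), Rcan1 (17 and 68), Pdgfb (18 and 68) and Alcam (57 and 184). Mmp12 had 9 and 76 UMIs, of which 47 in the depleted library lay in 1 cell. Ly6a, the surface protein Sca-1, was chosen after its value was seen and stood at 1089 and 433 CPM, a log2 ratio of 1.33.

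Markers of other cells were low but not absent in the members. The 20 NK cell genes summed to 120 CPM in control and 35.5 CPM in depleted members, with 6 and 15 of them at 0, among them Ncr1 by the rule, and AW112010, a transcript on that list that myeloid cells can also make, had 128 of 180 and 55 of 65 UMIs. The 9 B cell genes summed to 353 and 278 CPM, of which Ighm was 478 of 527 and 477 of 508 UMIs, and Ms4a1 and Pax5 were at 0 in both. Ighm was found in 63.3% and 63.9% of members, against 21.1% and 36.9% of the other C1q macrophages. The 12 T cell genes summed to 24.8 and 9.83 CPM, the 11 neutrophil genes to 156 and 66.1 CPM, and Ly6g was at 0 in both. Melanoma genes summed to 58.9 and 68.3 CPM, fibroblast genes to 26.8 and 16.4 CPM, and endothelial genes to 52.9 and 45.3 CPM. The 12 monocyte genes summed to 3265 and 3340 CPM, against 5299 and 6624 CPM in the other C1q macrophages. The part of these cells' RNA in the results was not tested, and without members that had 2 or more B cell or T cell genes the type I interferon median was 0.50 and the share ratio 0.778.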

How the data were processed

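Droplet single-cell RNA profiles (10x Genomics, 3' version 3 chemistry) were made from sorted CD45+ cells with the melanoma cell spike-in. The authors deposited UMI counts per gene and cell for each library, made with Cell Ranger (3.0.2 in the matrix header) on mm10, per the file headers and the submitters' processing notes. A normalized expression table of the series was not used here. The depth limits of the study were applied to each cell. Counts were summed over cells per library and scaled to CPM. Log2 ratios had 0.5 UMI added to each sum. Genes needed 50 UMIs over both libraries of members, or 100 UMIs in each library for members against other C1q macrophages. Intervals (95%) are Clopper-Pearson for shares and exact conditional binomial for ratios, and cover counting error only. No test was run, with 1 library per group. T-called cells had 2 or more of Cd3d, Cd3e and Cd3g, and NK-called cells had Ncr1 and 2 or more of Gzma, Prf1, Nkg7 and Klrb1c. Scrublet (scanpy 1.11.5) called doublets. Named genes were the rule genes, the 12 highest and 12 lowest ratios in members, the 15 highest and 15 lowest against other C1q macrophages, and examples from 40 gene lists. Members and lists were chosen with earlier results of these data known. Promoter letters came from RefSeq (GRCm38.p6), whose table matched part of the genes. Scripts (Python 3.11.15, numpy 2.4.6, pandas 2.3.3, scipy 1.17.1) were tested on simulated data. Alternatives covered the number of markers, Ccl8, the exclusion genes, depth limits, thinning, doublets, scaling and minimum counts.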

Additional observations from a re-analysis of the deposited data

Results flagged for a closer look

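The type I interferon list had a median log2 ratio, control over NK cell-depleted, of 0.48 in the Folr2 Cbr2 Gas6 macrophages and −0.19 in the other C1q macrophages, with counting ranges on opposite sides of 0. Within the other C1q macrophages it was 0.094 (−0.11 to 0.32) in cells with Ly6c2 and 0.055 (−0.20 to 0.32) in cells without, so the negative value was present in neither. It was 0.32 in Ly6c2 monocytes and 0.37 in Mmp13 macrophages. The 3 C1q genes had a median of −0.095 in members and 0.067 in the other C1q macrophages, again with ranges on opposite sides of 0. The other C1q macrophages were selected for 2 or more of these genes, and in members 1 of the 3 lay above 0 and 2 below, so nothing is read from that pair of values. These differences between groups of cells were not tested, since there is 1 library per condition.

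Cells above the upper depth limits were outside the members, yet some met the gene rule. These were 8 of 212 such cells (3.77%) in the control and 20 of 353 (5.67%) in the depleted library. Of them 8 and 19 had 2 or more C1q genes and none had 2 or more melanoma genes. Adding them moved the log2 ratio of Ifit1 from 1.14 to 0.18 and that of Rsad2 from 0.78 to 0.03.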

How the results depend on the processing

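Of the counts and list medians that answer a comparison, the count of genes 1.5-fold or more apart between the libraries moved most. It was 766 of 6644 measured genes (11.5%), 239 of 1468 (16.3%) with every cell thinned to 2000 UMIs, 1407 of 8552 (16.5%) with a minimum of 20 UMIs and 194 of 2781 (6.98%) with a minimum of 200 UMIs. Centring on the median of all genes gave 765 genes, of which 56.2% instead of 49.3% were higher in the control. Genes higher in members than in other C1q macrophages were 123 of 7051 (1.74%), and 73 of 3368 (2.17%) when thinned. The share ratio stayed between 0.682 (without Ccl8 in the rule) and 0.895 (3 or more markers), the type I interferon median between 0.30 and 0.65, and the interferon-gamma median between 0.16 and 0.50. Of 25 lists 10 had a median on the other side of 0 under at least 1 alternative, among them bridging and uptake (−0.32 to 0.02), cell cycle (−0.24 to 0.29), interferon receptors (−0.10 to 0.07) and prostaglandin and leukotriene genes (−0.10 to 0.10). Thinned, Folr2 had −0.13, CC chemokines 0.018, costimulation genes 0.15 and monocyte genes 0.49, and with 3 or more markers Spp1 had 0.082, the growth and repair list 0.077 and MHC class II −0.10. The type I list in other C1q macrophages was 0.094 with Ly6c2 and 0.055 without, a split chosen after seeing the data. The cause of these moves was not tested. Leaving aside settings that could not move them, 361 of 426 values over 52 single genes stayed in direction and within the counting interval, and 233 of 249 over the lists. No paired analysis was possible because each group is 1 library, and for the same reason no replicate could be left out.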

Other observations

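The members carried few genes of the peritoneal, Kupffer cell and microglia list, of which 2 of 12 were measured. Genes of leukotriene and prostaglandin metabolism were near even between the libraries, with 1 of 12 measured genes 1.5-fold or more higher and 1 lower in control members and a median log2 ratio of 0.02. The 15 measured cell cycle genes had a median of 0.00, with 3 of them 1.5-fold or more higher in control members. Members with Ccl8 had lower MHC class II levels than members without it, by a median log2 difference of −0.69 in the control and −0.96 in the depleted library. In the depleted library the resident macrophage list outside the rule was higher in members with Ccl8, by a median of 0.68, and in the control the difference was −0.03.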
